A study of Homo sapiens with 39 samples.

Results

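The DHRS genes encode members of the short-chain dehydrogenase/reductase family, and 9 of them were followed: DHRS1, DHRS2, DHRS3, DHRS4, DHRS4L2, DHRS7, DHRS9, DHRS11 and DHRS13. They were taken by gene name from 45435 gene rows, and they were picked because earlier results on the same libraries had shown DHRS2 lower in most lines. Their levels, differences and calls below are therefore a description: a call of a member says only that it passed the rule in the fit across all genes and supports nothing, and no p is given for one. Of these genes, 8 passed a filter of a mean of at least 1 TPM (transcripts per length and library total, so that levels of different genes can be compared) over all libraries, and DHRS9 did not.

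The cells were HCT116, a human colorectal cancer line, carrying the Flp-In T-REx system, which places a construct at a fixed genomic site and lets doxycycline switch it on. The 13 groups were the parental host cells, which hold no HNF4A construct, and 12 stable lines, each expressing 1 isoform (1 to 12) of hepatocyte nuclear factor 4 alpha (HNF4A) with GFP joined to its C-terminus. HNF4A is a nuclear receptor that controls genes of liver and gut epithelium. The comparison of each line with the parental cells asks which transcripts differ when 1 isoform is produced. All groups, the parental cells included, received 2.5 µg/ml doxycycline for 48 h with the antibiotics left out during induction, and each group had 3 poly(A) RNA-seq libraries. Earlier culture was under selection: blasticidin plus zeocin for the parental cells, blasticidin plus hygromycin B for the 12 lines. No group expressed GFP alone and each isoform is represented by 1 line. Against the parental cells, isoform, line, GFP and earlier antibiotic therefore cannot be told apart. The 12 lines share GFP and the earlier antibiotics, and between them isoform and line cannot be told apart. The labels do not say whether the 3 libraries of a group came from separate cultures, so adjusted p-values measure the spread between these libraries, which may be technical. The isoform numbers follow a standard scheme, used here as background. Isoforms 1 to 6 start from promoter P1 and 7 to 12 from promoter P2, and isoforms 4 to 6 carry exon 1B. Isoforms 2, 5, 8 and 11 carry a small insertion near the C-terminus, and isoforms 3, 6, 9 and 12 have a shortened C-terminus.

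Short-chain dehydrogenases bind NAD or NADP in a Rossmann fold and move hydride to or from alcohols, aldehydes and ketones. Several DHRS enzymes act on retinoids: DHRS3 reduces retinaldehyde back to retinol and so lowers the substrate for retinoic acid synthesis, while DHRS9 oxidises retinol and some steroids. DHRS2, also called HEP27, reduces dicarbonyl compounds with NADPH and has been reported to bind MDM2, the ubiquitin ligase of p53.

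The libraries had 27892 to 30553 rows above 0 TPM, and the authors' mean normalised counts summed to 50609338 to 56136330 per table, which is all that the tables show of depth. HNF4A, summed over its 12 rows, averaged 31.5 TPM ± 0.589 (SD, n = 3) without a construct and showed means of 613.5 TPM (isoform 2) to 1071 TPM (isoform 6) in the lines. This sum checks the labels only for lines against parental cells, and cannot check which isoform a line expressed. One library stood apart: HNF4A was at 406.9 TPM in replicate 1 of isoform 3, while replicates 2 and 3 had 833.5 and 771.8 TPM. Results on isoform 3 are given with and without it. All 5 epithelial markers (EPCAM, CDH1, KRT8, KRT18 and KRT19) were present, with summed levels of 3044 to 3171 TPM in the parental libraries and 2476 to 5580 TPM in the lines. The 3 leukocyte and the 2 hepatocyte markers were under 1 TPM in every group. Of the 3 fibroblast markers PDGFRB and COL1A1 reached 1 TPM (summed level 13.5 to 15.5 TPM in the parental libraries and 8.74 to 16.9 TPM in the lines), as did PECAM1 of the 2 endothelial markers (summed level 2.16 to 2.76 TPM, and at most 6.45 TPM in the lines).

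By position the family is scattered, except for a group on chromosome 14. In the RefSeq annotation of GRCh38.p14, DHRS2 lies at chr14:23630115-23645639 on the plus strand, DHRS4 at chr14:23953770-23969279, its close copy DHRS4L2 at chr14:23969874-24006408, and DHRS1 at chr14:24290598-24299780 on the minus strand. DHRS7 is further along the chromosome at chr14:60144119-60169889. DHRS3 lies at chr1:12567910-12618210 on the minus strand, DHRS9 at chr2:169067077-169096167, DHRS13 at chr17:28897781-28903079 and DHRS11 at chr17:36591879-36600804. All 9 are annotated as protein-coding.

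The sequences before the start sites of DHRS2, DHRS3 and DHRS1 are shown because these are the members whose levels differed most between groups. Each run is the 250 bases before an annotated start in RefSeq (GRCh38.p14), written 5′ to 3′ on the strand of the gene. Capitals mark TATAAA (the core of a TATA box) in DHRS2 and GGGCGG (a GC box, read as CCGCCC where it lies on the other strand) in the first DHRS3 window and in DHRS1. In a DHRS3 window before a start inside the gene they mark AGGTCA, a nuclear receptor half-site, read here as TGACCT on the other strand. Further windows of DHRS3 (chr1:12616790-12617039) and DHRS1 (chr14:24299461-24299710) held none of the motifs searched and are not shown.
DHRS2, chr14:23629865-23630114, plus strand: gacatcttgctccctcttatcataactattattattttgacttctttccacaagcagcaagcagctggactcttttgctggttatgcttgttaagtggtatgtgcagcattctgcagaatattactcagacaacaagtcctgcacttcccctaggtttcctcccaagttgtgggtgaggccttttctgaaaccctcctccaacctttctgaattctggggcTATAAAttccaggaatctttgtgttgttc
DHRS3, chr1:12618211-12618460, minus strand: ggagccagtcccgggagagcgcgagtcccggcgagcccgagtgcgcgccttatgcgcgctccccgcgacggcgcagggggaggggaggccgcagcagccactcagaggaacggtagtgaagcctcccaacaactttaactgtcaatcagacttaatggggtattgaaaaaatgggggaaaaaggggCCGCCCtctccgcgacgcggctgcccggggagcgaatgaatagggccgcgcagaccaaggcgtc
DHRS3 inner start, chr1:12596614-12596863, minus strand: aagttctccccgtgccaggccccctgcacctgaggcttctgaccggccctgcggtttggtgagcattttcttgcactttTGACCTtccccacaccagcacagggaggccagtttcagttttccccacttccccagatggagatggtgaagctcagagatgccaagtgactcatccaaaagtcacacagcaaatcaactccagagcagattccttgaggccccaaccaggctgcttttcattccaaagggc
DHRS1, chr14:24299781-24300030, minus strand: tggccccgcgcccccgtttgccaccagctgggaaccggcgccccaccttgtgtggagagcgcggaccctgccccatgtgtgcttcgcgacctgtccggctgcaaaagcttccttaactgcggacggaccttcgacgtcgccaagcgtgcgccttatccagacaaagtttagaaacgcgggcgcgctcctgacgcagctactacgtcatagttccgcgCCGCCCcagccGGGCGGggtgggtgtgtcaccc
The DHRS2 window had a GC content of 43.2% and 0 CG pairs, with TATAAA from -29 to -24 bases relative to the start. The first DHRS3 window had a GC content of 65.2% with 26 CG pairs, and the DHRS1 window shown had 66.4% with 28 CG pairs. The median GC content was 58% over 35116 RefSeq windows of the same length. TATAAA on either strand was in 10.7% of all windows, GGGCGG in 42.6% and AGGTCA in 12.1%. Windows were found for 8 of the 9 members, 16 in all. The HNF4 motif CAAAGTCCA (0.325% of all windows) was in 0 of the 16, and so was a pair of AGGTCA copies in the same direction spaced by 1 base (0.0171%) or by 5 bases (0.00285%). All motifs were searched on both strands and could overlap one another. These matches describe letters in the windows and say nothing about binding.

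DHRS2 was the highest of the 9 genes in the parental cells and had the widest range of group means. The parental libraries had 83.9, 99.3 and 106.1 TPM, a mean of 96.4 TPM ± 11.4 (SD, n = 3), and no line had libraries within that range or on both sides of it. In the line of isoform 2, where DHRS2 was lowest, the libraries had 4.97, 3.27 and 3.22 TPM, a mean 25.2-fold below the parental mean. That of isoform 7 had 4.79, 3.73 and 4.54 TPM (22.2-fold below), and that of isoform 10 had 4.34, 4.08 and 4.88 TPM (21.8-fold below). The isoform 1 libraries, at 5.85, 4.53 and 4.15 TPM (19.9-fold below), overlapped these 3 lines, so the 4 lowest lines could not be put in order beyond their spread. Isoforms 1, 7 and 10 have neither the insertion nor the shortened C-terminus, and isoform 2 has the insertion. Isoform 4 also has neither change but had a DHRS2 mean of 49 TPM, so this is not particular to the lowest lines.

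Other lines took intermediate levels of DHRS2. Isoform 9 had 6.88, 5.99 and 7.68 TPM (14.1-fold below the parental mean) and, with isoform 3 set aside, was clear of its neighbours in the order. Isoforms 6, 8 and 12 followed at means of 9.98, 10.7 and 11.8 TPM. The libraries of these 3 lines lay between 9.66 and 13.1 TPM and those of neighbouring lines overlapped. Isoform 11, with 16.3, 17.2 and 19.6 TPM, was above all of them and 5.45-fold below the parental mean. Isoform 4 came closest to the parental cells, with 51.9, 43.4 and 51.8 TPM, 1.97-fold below the parental mean and still under every parental library. In isoform 5 DHRS2 was higher, with 201.2, 191.4 and 206.4 TPM, a mean 2.07-fold above the parental cells. Isoform 5 was the single line with all libraries above the parental range, and 11 lines had all libraries under it. Here and for the other members, the share of all tested genes with such a count of lines was not computed. Nothing is read from these counts.

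**Figure D1:**
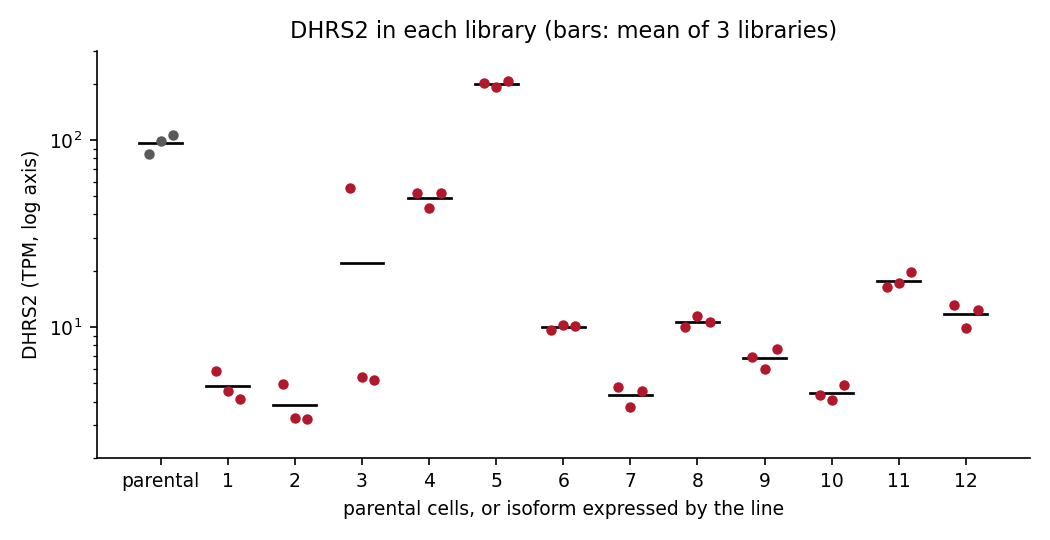
DHRS2 level in each library (TPM, log axis) for the parental cells and the 12 lines, numbered by isoform, with points for libraries and bars for the mean of 3. The isoform 5 libraries (191.4 to 206.4 TPM) lie above the parental ones (83.9 to 106.1 TPM) and all other lines lie below, with replicate 1 of isoform 3 at 55.4 TPM far from the rest of its line.

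In isoform 3 the libraries disagreed. Replicate 1 had 55.4 TPM of DHRS2, and replicates 2 and 3 had 5.42 and 5.21 TPM, a mean of 22.0 TPM ± 28.9 (SD, n = 3) that lies between them. Without replicate 1 the mean was 5.31 TPM, within the range of the isoform 1 libraries. Replicate 1 was also the library with the lower HNF4A level, and the part of that level in the DHRS2 value was not tested.

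On the log2(TPM + 1) scale, in 1 limma fit across the 39 libraries, the DHRS2 difference from the parental cells was -4.35 (isoform 2), -4.18 (isoform 7), -4.16 (isoform 10), -4.06 (isoform 1) and -3.63 (isoform 9) at the low end. Then came -3.14 (isoform 6), -3.05 (isoform 8), -2.93 (isoform 12), -2.89 (isoform 3) and -2.38 (isoform 11). Isoform 4 stood at -0.96 and isoform 5 at 1.05, and every one of these differences had an SE of 0.407. That SE is shared by all lines and depended on isoform 3: without its replicate 1 the isoform 3 difference was -3.94 ± 0.137 (SE) and that of isoform 5 was 1.05 ± 0.122 (SE). A gene was called at a limma Benjamini-Hochberg adjusted p under 0.05 with an absolute difference of at least 1 on this scale. DHRS2 was called lower in 10 of the 12 lines and higher in 0, and it was called higher in 1 line (isoform 5) without isoform 3 replicate 1. Of the 15003 genes tested, 0.0333% (5 genes) were called lower in at least 10 lines. DHRS2 was chosen from these contrasts, so nothing is read from that share, and all 12 comparisons use the same 3 parental libraries. In fits of each line with the parental libraries alone, DHRS2 was called lower in 9 lines, the isoform 3 call being lost, and higher in 1.

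DHRS3, the retinaldehyde reductase, was low in the parental cells and high in 9 lines. The parental libraries had 11.5, 13.6 and 15.9 TPM (mean 13.7 TPM ± 2.16, SD, n = 3). In isoform 2 the libraries had 110.6, 131.1 and 115.9 TPM, 8.7-fold above the parental mean, and in isoform 1 they had 116.9, 112.6 and 108.6 TPM (8.23-fold above). These lines overlapped each other and were clear of all others. Isoform 7 had 101.5, 97.4 and 92.7 TPM and isoform 10 had 97.6, 93.9 and 93.8 TPM, again overlapping. Isoform 11 had 86.5, 88.4 and 89.3 TPM, and below it the libraries of isoform 8 (71.6 to 75.4 TPM) and isoform 9 (63.5 to 79.7 TPM) overlapped. Isoform 12 was the lowest of these 9 lines, at 55.0, 52.8 and 61.1 TPM, 4.11-fold above the parental mean. In isoform 3, replicate 1 had 45.3 TPM and the other libraries 92.8 and 82.3 TPM, a mean of 73.5 TPM ± 24.9 (SD, n = 3), or 87.5 TPM without replicate 1. Every library of these 9 lines exceeded every parental library.

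The 3 lines with exon 1B stayed near the parental level of DHRS3. Isoforms 4, 5 and 6 had means of 16.2, 16.7 and 14 TPM, and libraries of each overlapped the parental range. Their log2 differences were 0.24, 0.28 and 0.04, against 1.97 (isoform 12) to 3.04 (isoform 2) in the other lines, each with an SE of 0.147. DHRS3 was called higher in 9 lines, and 0.213% of all genes tested (32 genes) were called higher in at least 9, from which nothing is read for a gene chosen with these values known. The isoform 3 difference moved from 2.29 to 2.60 ± 0.104 (SE) when replicate 1 was left out.

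**Figure D2:**
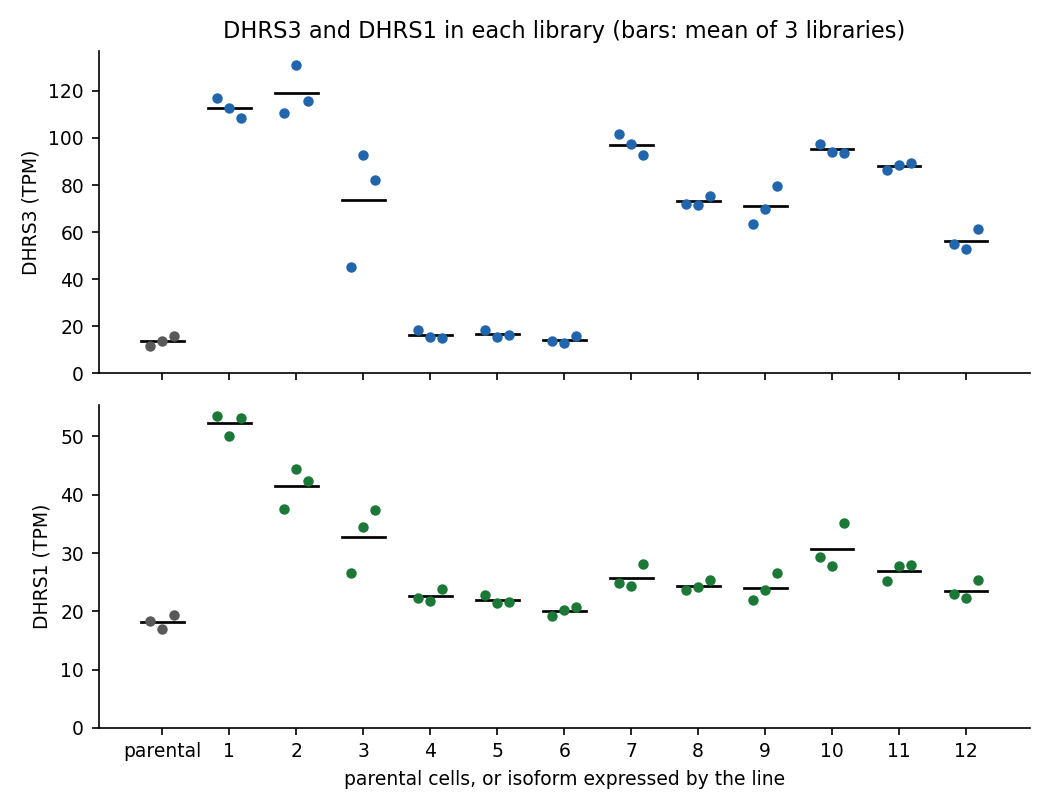
DHRS3 (top) and DHRS1 (bottom) in each library (TPM, linear axes from 0) for the parental cells and the 12 lines, numbered by isoform, with points for libraries and bars for the mean of 3. DHRS3 in isoforms 4, 5 and 6 (means of 14 to 16.7 TPM) lies with the parental cells, and DHRS1 is highest in isoforms 1 and 2.

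DHRS1, a family member of the endoplasmic reticulum, varied less. The parental libraries had 18.4, 16.9 and 19.3 TPM (mean 18.2 TPM ± 1.18, SD, n = 3). The isoform 1 libraries had 53.5, 50.1 and 53.1 TPM, 2.87-fold above, and the isoform 2 libraries had 37.6, 44.5 and 42.3 TPM, 2.28-fold above, with no overlap between these lines. Isoform 3, with 26.5, 34.5 and 37.3 TPM, overlapped isoform 10, with 29.3, 27.7 and 35.2 TPM. The means of the remaining lines ran from 27.0 TPM (isoform 11) down to 20.1 TPM (isoform 6), each overlapping the next in the order except for the step from isoform 5 to isoform 6. In 11 lines every library was above every parental one, and isoform 6 overlapped them. The log2 differences ran from 1.47 (isoform 1) and 1.14 (isoform 2) through 0.80 for isoform 3 (0.94 without replicate 1) down to 0.13 (isoform 6), with an SE of 0.092. DHRS1 was called higher in 2 lines, and 2.44% of all genes tested (366 genes) were called higher in at least 2.

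DHRS4, a peroxisomal carbonyl reductase that also oxidises retinol, and its copy DHRS4L2 stayed close to the parental level in these values. DHRS4 was at 44.6, 50 and 48.0 TPM in the parental libraries, and the line means ran from 48.4 TPM (isoform 7) to 53.1 TPM (isoform 3), log2 differences of 0.03 to 0.16. DHRS4L2 was at 21.0, 19.0 and 19.3 TPM in the parental libraries and at line means of 19.2 to 22.6 TPM, log2 differences of -0.04 to 0.18. The transcripts of the pair are near-identical over long stretches, so how reads were shared between them is uncertain.

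DHRS7, a steroid and retinoid reductase of the endoplasmic reticulum, had 44.6, 48.9 and 47.8 TPM in the parental libraries. It was highest in isoform 4, with 58.9, 59.7 and 60.3 TPM (log2 difference 0.33 ± 0.059, SE), and next highest in isoform 5 with 54.0, 55.8 and 54.8 TPM (0.22). Together with isoform 10 these were the 3 lines with all libraries above the parental range, and isoform 1, at 42.6, 43.0 and 44 TPM (-0.12), was the 1 line with all libraries under it. That isoform 1 difference was -0.01 with median-of-ratios scaling and 0.02 in the authors' deposited table. DHRS11, which has 17-beta-hydroxysteroid dehydrogenase activity, was at 23.4, 22.1 and 22.8 TPM in the parental cells and exceeded them in every library of 9 lines, up to 32.2, 28.5 and 29.9 TPM in isoform 11 (0.39 ± 0.056, SE). Lying clear of the parental range is common. Of the 15003 tested genes, 30.8% lay clear above it in at least 1 line and clear below it in at least 1 other.

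DHRS13 went both ways. The parental libraries had 16.9, 16.5 and 17.7 TPM. Isoform 1 had 9.23, 10.4 and 10.5 TPM, the lowest of all groups and clear of the next (log2 difference -0.71 ± 0.056, SE). Isoform 5 had 22.8, 23.2 and 23.4 TPM (0.42), isoform 4 had 21.6, 22.3 and 22.5 TPM (0.36) and isoform 6 had 19.9, 21.2 and 20.2 TPM (0.25), so the 3 lines with exon 1B were the 3 highest groups. All libraries lay above the parental range in 4 lines (isoforms 4, 5, 6 and 8) and under it in 5 (isoforms 1, 2, 7, 9 and 11).

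DHRS9 was hardly detected. The parental libraries had 0.0852, 0.145 and 0.19 TPM and the line means were 0.0599 to 0.361 TPM. Isoform 1, with 0.39, 0.442 and 0.251 TPM, was the single line with all libraries above the parental ones. TPM without counts gives no measure of counting error at such levels, and the gene was left out of the comparisons by the filter.

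**Figure D3:**
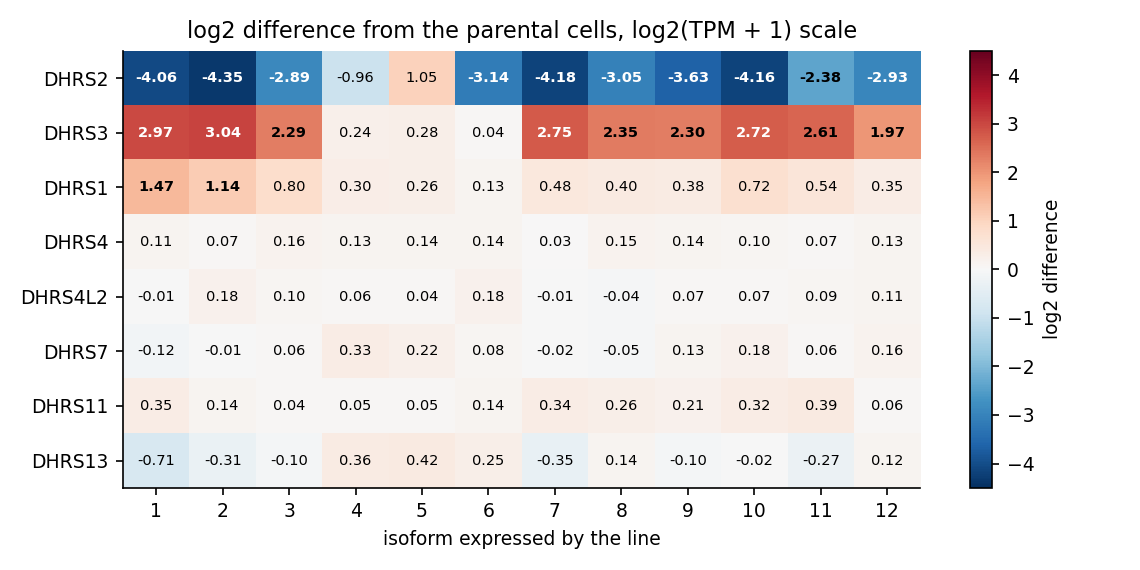
Difference of each line (columns, by isoform) from the parental cells for the 8 tested DHRS genes (rows), on the log2(TPM + 1) scale, with blue for lower and red for higher values and bold type for called differences. DHRS2 was called lower in all lines but isoforms 4 (-0.96) and 5 (1.05), DHRS3 was called higher in all lines but isoforms 4, 5 and 6 (0.24, 0.28 and 0.04), and the lower 5 rows hold no called difference.

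By line, 3 of the 8 tested members were called in isoform 1, where 4.52% of all tested genes were called, and 3 in isoform 2 (3.73% of all genes). The called members were DHRS2, DHRS3 and DHRS1 in both. In 7 lines 2 members, DHRS2 and DHRS3, were called: isoform 3 (0.807% of all genes), isoform 7 (2.08%), isoform 8 (1.41%), isoform 9 (0.827%), isoform 10 (1.44%), isoform 11 (1.7%) and isoform 12 (0.573%). In isoform 6 DHRS2 alone was called (0.247% of all genes), and in isoforms 4 and 5 the count was 0 (0.54% and 0.293% of all genes). Because these contrasts chose the members, nothing is read from the counts against those shares. The median log2 difference of the 8 members ran from 0.01 (isoform 7) to 0.24 (isoform 5), beside a median over all tested genes of -0.107 (isoform 1) to 0.012 (isoform 5). Median-of-ratios scaling changed the sign of 4 of the 96 member differences, all within 0.02 of 0 as deposited (DHRS4L2 and DHRS7, in isoforms 1, 2 or 7).

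Summed over the 9 genes, the level differed less than its make-up. The parental sum was 282.7 TPM ± 16.7 (SD, n = 3), of which DHRS2 made up 34% ± 2.08 and DHRS3 4.81% ± 0.493. In isoform 1 the sum was 323.6 TPM ± 8.62 (SD, n = 3), with DHRS2 at 1.49% and DHRS3 at 34.8%. DHRS3 was the highest member in this line and in the other 8 lines outside isoforms 4, 5 and 6. The sum was highest in isoform 5, at 412.9 TPM ± 7.27 (SD, n = 3), where DHRS2 made up 48.4%, and lowest in isoform 6, at 214.7 TPM ± 7.52 (SD, n = 3), where DHRS2 was at 4.65% and DHRS3 at 6.53%. The TPM ratio of DHRS3 to DHRS2 in single libraries was 0.137 to 0.149 in the parental cells, 0.0786 to 0.092 in isoform 5 and 22.2 to 40 in isoform 2. In isoform 3 it spanned 0.819 (replicate 1) to 17.1.

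**Figure D4:**
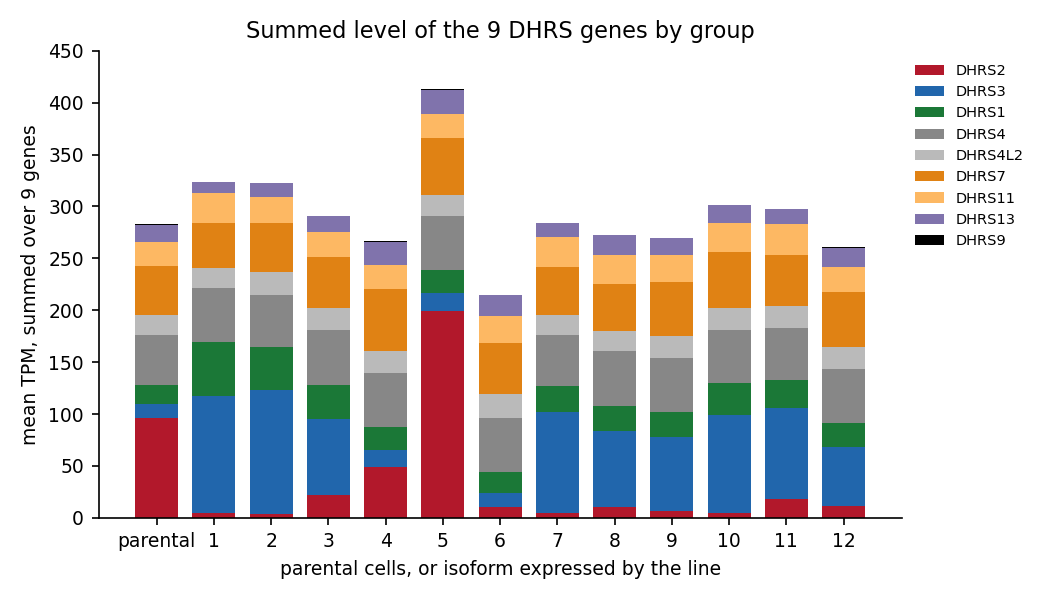
Mean TPM of the 9 DHRS genes, stacked, for the parental cells and the 12 lines, numbered by isoform, on a linear axis from 0. DHRS2 is 34% of the sum in the parental cells and 48.4% in isoform 5, and DHRS3 is the largest block in the 9 lines other than isoforms 4, 5 and 6.

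Lines whose isoforms differ by 1 named change can be set side by side, again as a description. The share of all tested genes whose libraries do not overlap in such pairs was not computed. Nothing is therefore read from counts of pairs. With exon 1B, DHRS3 was 6.95-fold lower in isoform 4 than in isoform 1, 7.13-fold lower in isoform 5 than in isoform 2 and 5.24-fold lower in isoform 6 than in isoform 3 (6.25-fold without isoform 3 replicate 1). The libraries did not overlap in any of these 3 pairs. DHRS2 differed by unequal amounts, and in 1 pair the direction of the means depended on isoform 3 replicate 1. DHRS2 was 10.1-fold higher in isoform 4 than in isoform 1 and 52.2-fold higher in isoform 5 than in isoform 2. In isoform 6 its mean was 2.2-fold below that of isoform 3, whose libraries it overlapped, and 1.88-fold above it without isoform 3 replicate 1. HNF4A was itself higher in the line with exon 1B in all 3 pairs, by 1.09-fold, 1.39-fold and 1.6-fold (1.33-fold without isoform 3 replicate 1), and its part in these differences was not tested.

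With the insertion, DHRS2 was higher in 3 of 4 pairs with no overlap: 4.07-fold in isoform 5 against 4, 2.46-fold in isoform 8 against 7 and 3.99-fold in isoform 11 against 10. Isoforms 2 and 1 overlapped. DHRS3 in the same pairs overlapped between isoforms 1 and 2 and between 4 and 5, and was lower with the insertion in isoform 8 (1.33-fold) and isoform 11 (1.08-fold). HNF4A in these pairs was within 1.28-fold. It was lower with the insertion, without overlap, in isoform 2 against 1 (1.28-fold) and in isoform 11 against 10 (1.08-fold), and overlapped in the other pairs. The part of HNF4A level in these differences was not tested. With the shortened C-terminus, DHRS2 was 4.91-fold lower in isoform 6 than in isoform 4, but 1.57-fold higher in isoform 9 than in isoform 7 and 2.65-fold higher in isoform 12 than in isoform 10, and isoforms 1 and 3 overlapped (1.1-fold between means without isoform 3 replicate 1). HNF4A was higher with the shortened C-terminus, without overlap, in isoform 6 against 4 (1.25-fold) and in isoform 9 against 7 (1.29-fold), and overlapped in the other pairs. DHRS3 was lower with the shortened C-terminus in 3 of 4 pairs, by 1.53-fold in isoform 3 (1.29-fold without replicate 1), 1.37-fold in isoform 9 and 1.69-fold in isoform 12. Each such pair compares 1 line with 1 line, so the change in the isoform and the line cannot be told apart. Nothing is read from the counts of pairs here either, for want of the share over all tested genes.

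Genes outside the 9 were tested with limma, with p-values adjusted over the 15003 genes. Among the 6 other genes with DHRS in their name, 4 were tested (DHRS7B, DHRS12, DHRSX and the antisense RNA DHRS4-AS1), and 0 of their 48 gene and line pairs were called. Over all 180036 pairs 0.94% were called higher and 0.574% lower, so nothing is read from a count of 0 in so few pairs. Without the minimum difference, 6 pairs had an adjusted p under 0.05 and 14 an unadjusted p under 0.05, and the authors' deposited tables hold 0 past both limits and 4 past the adjusted p alone. Their log2 differences ran from -0.27 to 0.22 with a median of 0.01. The largest in size was that of DHRS4-AS1 in isoform 1, from 11.7 to 9.5 TPM (-0.27 ± 0.068, SE, limma adjusted p = 9.21e-04). Whether the counting used strand is not given in the sources used here, so reads of DHRS4-AS1 and DHRS4 may not be told apart.

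Among 32 genes of retinoid metabolism, 19 were tested, and of 228 pairs 5 (2.19%) were called higher and 14 (6.14%) lower, beside 0.94% higher and 0.574% lower over all 180036 pairs. The median log2 difference of the list was -0.06. Most of these calls were in genes of low level: with a filter at 5 TPM 4 pairs were called, all lower, and with a pseudocount of 0.1 TPM 31 were. STRA6, the retinol uptake receptor, fell in 6 lines (isoforms 1, 2, 7, 8, 9 and 11), most in isoform 2, from 3.41 to 0.563 TPM (-1.5 ± 0.123, SE, limma adjusted p = 1.51e-11). CYP26A1, the hydroxylase that clears retinoic acid, fell in 4 lines (isoforms 1, 2, 7 and 11), most in isoform 1, from 2.11 to 0.315 TPM (-1.23 ± 0.125, SE, adjusted p = 8.44e-10). Both are classic retinoic acid target genes, but whether retinoic acid signalling differed was not tested. Picked after their values were seen, RARA and CYP26B1 were higher in isoform 1 (0.79 ± 0.058 and 0.68 ± 0.073, SE). RARG was lower there (-0.83 ± 0.06, SE), and none of these was called in any line. RBP2, the intestinal retinol-binding protein, rose in 3 lines (isoforms 1, 2 and 10), from 0.35 to 11.3 TPM in isoform 1 (3.18 ± 0.14, SE, adjusted p = 6.18e-18). Outside the naming rule, and picked after their values were seen, RDH5, a retinol dehydrogenase, rose in isoforms 1 and 2 (1.71 ± 0.235, SE, in isoform 1) and CRABP2, a retinoic acid-binding protein, fell in isoform 1 (-1.1 ± 0.105, SE). In all, 13 tested genes of the list were called in no line. No gene of the list was called in isoforms 3, 4, 5, 6 or 12, lines in which 0.247% to 0.807% of all genes were called.

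Other short-chain dehydrogenases were called about as rarely as genes in general in the higher direction. Of 38 such genes 33 were tested, and of 396 pairs 3 (0.758%) were called higher and 0 lower, beside 0.94% and 0.574% over all pairs, with a median log2 difference of 0.09 and 31 genes called in no line. The count was 7 with a pseudocount of 0.1 TPM, 5 with median-of-ratios scaling and 1 with a filter at 5 TPM. HPGD, which inactivates prostaglandins, rose in isoforms 1 and 2, from 0.775 to 3.45 TPM in isoform 2 (1.32 ± 0.136, SE, limma adjusted p = 1.58e-09). DECR1, the mitochondrial dienoyl-CoA reductase of fatty acid oxidation, rose in isoform 2 from 104.4 to 212.7 TPM (1.02 ± 0.076, SE, adjusted p = 1.59e-12). The retinoid and dehydrogenase lists share RDH10, RDH11, RDH13 and RDH14.

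Among neighbours of the members on the chromosome, few genes accounted for the calls. Of the 43 tested genes nearest the members (3 on each side), 38 were called in no line, and of 516 pairs 17 (3.29%) were called higher and 2 (0.388%) lower, beside 0.94% and 0.574% over all pairs. The median log2 difference was -0.02, and there were 12 calls with a filter at 5 TPM. CIDEB, a lipid droplet protein whose gene lies near that of DHRS1, rose in isoforms 1, 2, 3 and 10. In isoform 1 it went from 2.28 to 58.5 TPM (4.18 ± 0.178, SE, limma adjusted p = 3.36e-18). PIPOX, the peroxisomal pipecolate and sarcosine oxidase, rose near DHRS13 in 7 lines, from 0.431 to 9.65 TPM in isoform 10 (2.9 ± 0.11, SE). SNORA59A, a small nucleolar RNA near DHRS3, was called higher in 6 lines, most in isoform 10 (1.44 ± 0.382, SE, limma adjusted p = 0.00344). Its parental libraries were spread widely, at 6.54 TPM ± 2.97, beside 18.4 TPM ± 3.26 in isoform 10 (SD, n = 3). SNORA59A lies within the coordinates of VPS13D, so reads of these genes may not be told apart. Without parental replicate 2, the higher calls of all neighbours fell from 17 to 12, and which pairs were lost is not given here.

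Within 1 Mb on either side of DHRS2, 57 genes were tested, of which 53 are not members. Of the 53, 0 were called lower in any line and 4 higher (SLC7A7, LRP10, AJUBA and CIDEB), beside 3.18% and 3.6% of all tested genes called lower and higher in at least 1 line. Nothing particular to this window is read from these counts. Distances here are between the lower coordinates of genes on the chromosome, whatever their strand. The tested genes nearest to DHRS2 were at -70.55 kb (AP1G2), -118.36 kb (THTPA) and -160.41 kb (NGDN). Their log2 differences in isoform 1 were -0.52, 0.10 and -0.09. On the other side the nearest was DHRS4-AS1 at 308.62 kb, with -0.27.

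**Figure D5:**
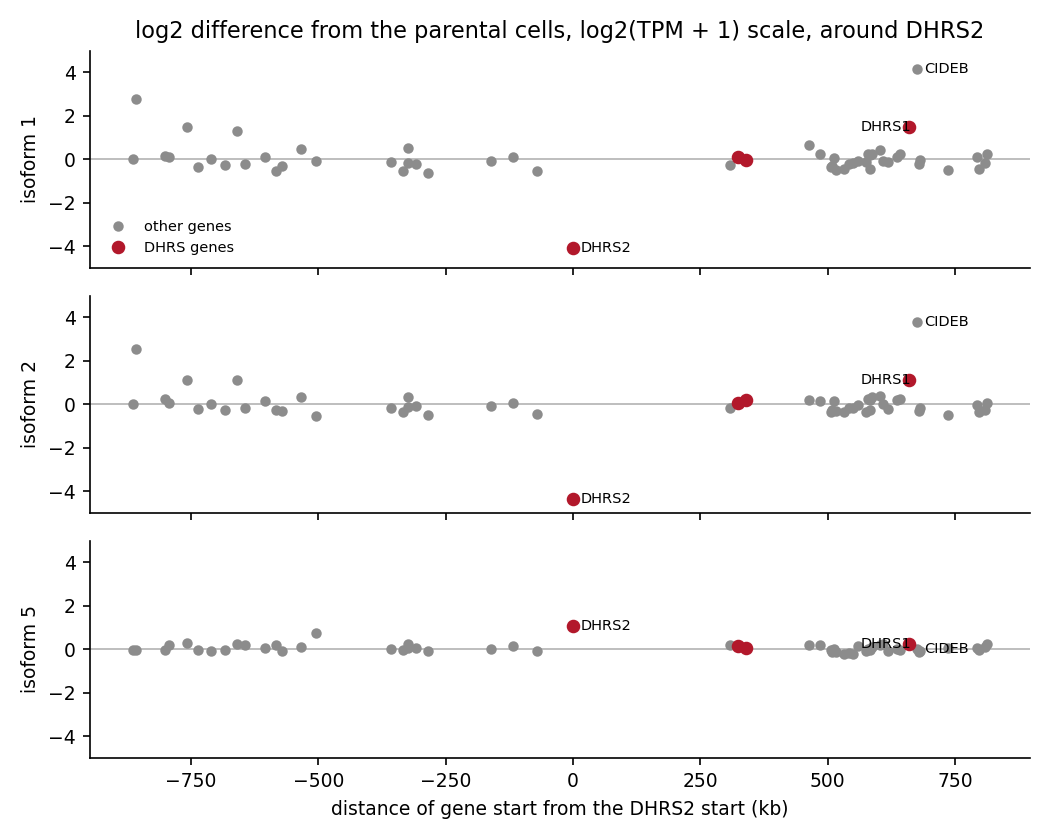
Difference from the parental cells on the log2(TPM + 1) scale (vertical axes) for tested genes, in isoforms 1, 2 and 5 (top to bottom), with DHRS genes in red. Genes are placed by the distance (kb) of their lower coordinate, whatever the strand, from that of DHRS2. DHRS2 is the lowest point in isoforms 1 and 2 (-4.06 and -4.35) and is at 1.05 in isoform 5, while CIDEB is the highest in isoforms 1 and 2.

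Over the 13 group means of log2(TPM + 1), the tested gene most like DHRS2 was LOC100996740 (Pearson r = 0.943), followed by DISP3 (0.914), SNORD145 (0.887), YIPF3 (0.886) and LOC107984467 (0.886). Of these, LOC100996740, DISP3, SNORD145 and LOC107984467 were near the filter, at parental means of 1.51 to 2.84 TPM, while YIPF3 went from 85.3 TPM in the parental cells to 72.1 TPM in isoform 2 and 90.2 TPM in isoform 5. The most opposite were ESD (-0.908), SPRYD7 (-0.902) and BORCS5 (-0.9). ESD, the S-formylglutathione hydrolase, had 213.8 TPM in the parental cells, 279.9 TPM in isoform 2 and 214.1 TPM in isoform 5. DHRS2 had r = -0.8 with DHRS3 and r = -0.6 with DHRS1 over the same means, and DHRS3 had r = 0.74 with DHRS1. Over the 9 lines left without the parental cells and isoforms 4 to 6, these were -0.68, -0.49 and 0.74. Such values describe 13 means, in which every line shares the design and the genes were picked from the same values, so no p is given.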

How the data were processed

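RNA-seq of 39 libraries in 13 groups of 3 was used. The authors deposited 13 tables of 45446 rows with TPM per library, each column summing to 999972.6 to 999987.7. The submitters' processing notes name kallisto 0.44.0, DESeq2 1.22.2, Trimmomatic 0.36, FastQC 0.11.5 and GRCh38.p12 without their roles. The 12 line tables also hold the authors' mean normalised counts (a signal per gene), log2 fold change with SE, test statistic (a score), p-value and adjusted p-value against the parental cells, per the file headers; of these the mean, the log2 fold change and the adjusted p are used here.

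All tables list the rows in 1 order. Names differed in 29 rows of 2 tables (isoforms 4 and 5), and the 12 rows named HNF4A1 to HNF4A12 were summed. For isoforms 4 and 5 the labels repeat 1 name for 3 libraries, so these 6 have no replicate number. DHRSX has 2 identical rows and was counted once.

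TPM are not counts, so log2(TPM + 1) was fitted with limma 3.58.1 in R 4.3.3 (eBayes with trend, 13 groups, no replicate block, 26 residual degrees of freedom, two-sided), for genes that averaged 1 TPM or more over all libraries. The scale understates changes of low genes. Benjamini-Hochberg adjustment ran over all 15003 genes within a comparison. Genes were named by rule: all members, HNF4A, up to 4 genes per list called in the most lines, and the 5 most and 3 least correlated with DHRS2. Some genes that entered the tests and counts are not reported here by name. The members and all lists were chosen with earlier results of these data known. Neighbours and sequences come from RefSeq tables of GRCh38.p14, a patch release of the same assembly. Alternatives were other pseudocounts, filters, scalings, sets of libraries, a replicate block and no minimum fold.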

Additional observations from a re-analysis of the deposited data

Results flagged for a closer look

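Differences of opposite direction from the same parental libraries were seen for 3 of the members, and the difference between the lines was not tested for any of them. The pattern is common: of the 15003 tested genes, 30.8% had all libraries above the parental range in at least 1 line and all below it in at least 1 other, beside 3 of the 8 tested members. DHRS2 had all 3 libraries above every parental library in 1 line (isoform 5) and all below in 11 lines. DHRS7 had all libraries above in 3 lines (isoforms 4, 5 and 10) and below in 1 (isoform 1), where the log2 difference of -0.12 was -0.01 with median-of-ratios scaling and the authors' deposited table gives 0.02. DHRS13 had them above in 4 lines (isoforms 4, 5, 6 and 8) and below in 5 (isoforms 1, 2, 7, 9 and 11). For DHRS7 and DHRS13 no log2 difference reached 1 in size.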

How the results depend on the processing

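The number of lines in which DHRS2 was called lower was 10 under a pseudocount of 0.1, no filter, a filter at 5 TPM, median-of-ratios scaling, no minimum fold and all 39 fits that left out 1 library (10 to 10), and 9 when each line was fitted with the parental libraries alone. The number in which it was called higher was 0, but 1 in those separate fits and 0 to 1 when single libraries were left out (1 without isoform 3 replicate 1 or 3). The total over 12 comparisons was 2726 calls (2706 to 2792 on leaving out libraries), 4500 with a pseudocount of 0.1, 1712 with the filter at 5 TPM and 55221 with no minimum fold. Calls of the other 8 members numbered 11 (11 to 11), and 38 with no minimum fold (34 higher, 4 lower). Other DHRS-named genes stayed at 0 (0 to 0) in every alternative that kept the minimum fold. Retinoid genes had 19 calls (18 to 20), 31 with a pseudocount of 0.1 and 4 with the filter at 5 TPM. Other short-chain dehydrogenases had 3 (2 to 4), 7 with a pseudocount of 0.1, 1 with the filter at 5 TPM and 5 with median-of-ratios scaling. Neighbours had 19 (13 to 20), and 12 with the filter at 5 TPM, which tests fewer genes. The cause of the other shifts was not tested. Of 4480 alternative values of the member differences, 4435 stayed within 1 SD, 45 moved further and 0 reversed among called ones.

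Replicate numbers were not used to pair the libraries in the main fit. Same-numbered libraries had median correlations of 0.0512 to 0.0564 in their deviations, some below 0 (lowest -0.175), against a median of -0.0293 for different numbers. Weak structure by number was present, since 29 of 33 numbered libraries correlated best with their own number. The SE of DHRS1 in isoform 1 was 0.073 with the replicate block and 0.097 without it in the same 11 groups. With the replicate block over the 11 numbered groups there were 2605 calls, against 2597 without it (chosen after seeing the data), and the DHRS2 (10 and 0), other member (11), other DHRS (0), retinoid (19), dehydrogenase (3) and neighbour (19) counts were equal in both. TPM keeps no read depth, so counting error cannot be given, which limits DHRS9 most.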

Other observations

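For DHRS2 the log2 fold change in the authors' deposited table can be set beside the log2 ratio of mean TPM from the same libraries. The deposited value minus the TPM value was -0.07 in isoform 5, 0.13 in isoform 4 and 0.17 in isoform 8, each within the range that holds 99% of the 6956 genes with at least 20 TPM in the parental cells. In the other 9 lines it was outside that range. In isoform 3 the authors' deposited table gives -3.84, against -2.13 from mean TPM, a gap of -1.71 that no other of these genes exceeded in size. In isoform 12 the authors' deposited table gives -2.17 against -3.04, a gap of 0.87 exceeded by 3 genes, and the gap of 0.65 in isoform 2 was likewise exceeded by 3. In isoforms 1, 6, 7, 9, 10 and 11 it was 0.19 to 0.41. Over those genes the median gap was 0.07 in isoform 3 and 0.02 in isoform 12, and 99% of genes had a gap of at most 0.20 and 0.19 in size. The deposited isoform 3 value is near the -3.94 found on the log2(TPM + 1) scale without replicate 1. The source of the gaps was not tested.

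Over the 12 lines, Pearson r with the HNF4A mean was 0.27 for DHRS2, -0.7 for DHRS3 and -0.49 for DHRS1, and over the 9 lines without isoforms 4 to 6 it was -0.23, -0.18 and -0.16. HNF4A was higher in each line with exon 1B than in its counterpart among isoforms 1 to 3, so in those pairs HNF4A level and exon 1B cannot be told apart. Isoform 9, without exon 1B, had a HNF4A mean of 948.4 TPM, beside 855.8 and 852.2 TPM in isoforms 4 and 5, whose libraries it overlapped. Its DHRS3 mean was 71 TPM, against 16.2 and 16.7 TPM in those lines, and its DHRS2 mean 6.85 TPM, against 49 and 199.7 TPM. The part of HNF4A level was not tested, and no p is given.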
